A study of Homo sapiens with 3 samples.

Results

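The STAT6 locus was examined here as all CpGs read on chromosome 12 from 57470000 to 57530000 (GRCh37), a stretch of 60 kb that holds STAT6 and its neighbours. It held 296 of the 3225751 CpGs read in the series, and 182 of them had at least 10 reads in all 3 libraries. The 3 libraries came from Hep3B, a human hepatocellular carcinoma cell line. Parental cells gave 1 library, and so did each of 2 lines of these cells in which SOX4 was knocked out, named line 1 and line 2 after the numbers in their labels. The knockouts were made with CRISPR/Cas9 and, by the study's methods, grown with puromycin, a selection drug not mentioned there for parental cells, so that drug and genotype cannot be told apart. Whether each line grew from a single clone is not given in the sources used here. DNA was enriched with the EPIC probe set for CpGs and treated with bisulfite, after which unmethylated cytosine reads as T, so that the share of reads keeping a C gives the methylation level. SOX4 belongs to the SOX family of DNA-binding transcription factors, and its editing was not checked here, since the files hold methylation only. The parental group has 1 library, so every test below compares libraries and not conditions, and the difference between the knockout lines is given as the yardstick.

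STAT6 carries the signal of interleukin-4 from its receptor to the nucleus, where it binds DNA and activates target genes. CpG methylation at the start of a gene commonly goes with a silent promoter, whereas methylation along the body of a gene is usual in transcribed genes. Many starts in CpG-rich DNA are kept free of methylation in most tissues. In RefSeq, the genes along this part of chromosome 12 run in the order NEMP1, NAB2, STAT6, a long noncoding RNA and LRP1. NEMP1 encodes a protein of the inner nuclear membrane, NAB2 a corepressor of the EGR transcription factors, and LRP1 a large endocytic receptor of the LDL receptor family. STAT6 was taken to lie at 57489187 to 57505196, read on the complementary strand, so that higher positions are upstream of it. That interval was given with the choice of the locus and was not read from an annotation of this build. Its upper end is called the given start.

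The question was how far the methylation rise at 57504213 to 57504424, called the block here, reaches into the gene body, past the start and toward the neighbours. The block had been picked in earlier work on these data for its rise in both knockout lines, so its own values describe it and are no test of it. RefSeq lists a STAT6 start that could be set against these positions. Its window of 300 bases (chr12:57110240-57110539 in GRCh38.p14, complementary strand) holds 12 CpGs, and the spacing of 9 of them was found at a single place among all CpGs read in the series, with the next best place matching 5. By that match the window covers 57504023 to 57504322 in the positions of the files, and the listed start falls at 57504072, 1124 bp inside the given start. The block therefore lies 141 to 352 bp upstream of that listed start and 772 to 983 bp inside the gene as given. The 250 bases before the listed start are shown because 5 CpGs of the block and the next 4 toward the start are in them. For contrast, the same stretch of NEMP1 is shown, whose 12 CpGs were all found, at 57472525 to 57472824 (the next best place matched 4). Both read 5′ to 3′ toward the start, from RefSeq, and capitals mark the CpGs.
STAT6: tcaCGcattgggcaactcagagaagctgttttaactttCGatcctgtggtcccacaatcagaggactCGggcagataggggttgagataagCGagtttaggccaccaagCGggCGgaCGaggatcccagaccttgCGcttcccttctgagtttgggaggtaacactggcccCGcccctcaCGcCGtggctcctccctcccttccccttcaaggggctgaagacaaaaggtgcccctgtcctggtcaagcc
NEMP1: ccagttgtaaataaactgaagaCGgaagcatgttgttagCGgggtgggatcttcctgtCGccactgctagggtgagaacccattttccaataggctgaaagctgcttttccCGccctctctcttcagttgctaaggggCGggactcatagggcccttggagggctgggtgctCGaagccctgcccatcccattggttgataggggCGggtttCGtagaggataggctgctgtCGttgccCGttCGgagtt

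The STAT6 and NEMP1 windows carry the same number of CpGs, 12 in 300 bases, while the RefSeq windows of NAB2 and LRP1 carry 33 and 23. Of all 35116 start windows in the table, 46.9% had fewer CpGs than STAT6. The NAB2 and LRP1 windows could not be placed, with 7 and 6 matched CpGs at best against 6 at the next place, and no value is given for those starts. Of the 12 CpGs in the STAT6 window, the 3 nearest to the listed start, at 57504069, 57504139 and 57504142, had no reads in any library. The closest CpG with reads, 57504151, lies 79 bp upstream of the listed start and had 0 of 3 parental reads methylated, 3 of 4 in line 1 and 2 of 2 in line 2. The letters AACAAAG and AACAATG, forms of the sequence that SOX proteins bind, were searched on both strands of the STAT6 window and were not in it, while 5.20% and 3.33% of all windows hold them. Other forms of the SOX sequence, which the consensus given in the paper allows, were not searched in this window. The palindrome bound by STAT6 itself, TTC and GAA with 4 bases of any kind between them, was also absent there, and 6.44% of all windows hold it.

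Depth sets what can be said. Reads over CpGs numbered 104702738 in parental cells, 96987706 in line 1 and 133170621 in line 2. In the locus the median CpG had 21 parental reads, 18 in line 1 and 22 in line 2, and 293 of 296 CpGs had at least 1 read in all 3. The complementary strand gave 99.2% to 99.4% of the reads of the locus, against 86.7% to 87.0% of all reads, and no read of the forward strand covered the changed CpGs. The rise thus could not be checked on the other strand. Read CpGs fell into 20 stretches that were more than 300 bp apart, and the longest distance between them was 6754 bp, so most of the 60 kb was not observed.

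Methylation rose in both knockout lines at the block and at the CpGs on either side of it, and at no other stretch of the locus was the mean level of both lines 25 percentage points or more above parental. Going outward from the block over CpGs with 5 or more reads in every library, a rise of at least 25 percentage points in both lines held from 57504187 to 57504989, over 803 bp and 20 CpGs. It thus extended 26 bp beyond the block toward the gene body and 565 bp toward the given start, where its last CpG lies 207 bp inside that start. Both ends are set by missing reads. On the gene body side the next CpG with reads in this walk was 2004 bp away, and on the upstream side it was 791 bp away, at 57505780. The given start at 57505196 falls in that unread interval, so no library shows whether the start itself changed. The span moved to 212 bp with a minimum of 10 reads and to 346 bp with any read, where it stopped at 57504896, a CpG with 2 to 11 reads. With line 1 alone, or with a rise of 10 points, it reached 57502183 and 2807 bp.

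**Figure D1:**
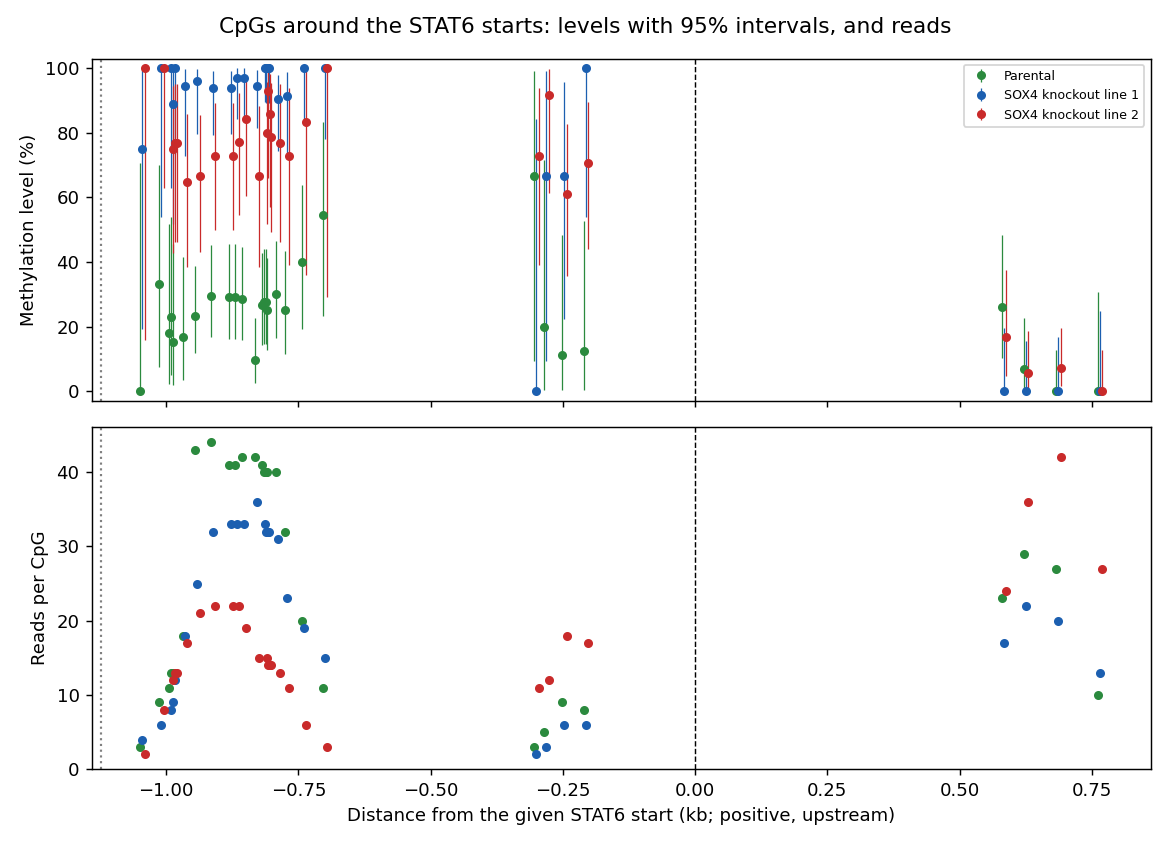
Upper panel, methylation level (%) of each CpG around the STAT6 starts in the parental library (green), line 1 (blue) and line 2 (red), with exact 95% intervals. Lower panel, reads per CpG. The x axis is the distance in kb from the given start (dashed line), with the RefSeq-listed start as a dotted line. Line 1 and line 2 lie above parental from 57504187 to 57504989, except line 1 at 57504896, and all 3 libraries are low at the 4 CpGs upstream of the given start.

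The 14 CpGs of the block had a mean level of 24.5% in parental cells, 96.3% in line 1 and 76.3% in line 2, with a knockout mean of 86.3% ± 14.1 (SD, n = 2). Line 1 lay 71.8 points and line 2 51.8 points above parental, while the lines differed by 19.96 points. The level of line 2 fell between the other libraries at 14 of 14 CpGs. At 57504385, where both lines rose the most by the smaller of their differences, 11 of 40 parental reads were methylated (27.5%, 95% interval 14.6% to 43.9%). Line 1 had 32 of 32 (100%, 89.1% to 100%), and line 2 had 13 of 14 (92.9%, 66.1% to 99.8%). The intervals of both lines lie above that of parental and overlap each other. At 57504407, which rose the least by line 1, the counts were 12 of 40 in parental cells, 28 of 31 in line 1 and 10 of 13 in line 2. Line 2 was read less than the others in the block: it had 232 reads there, against 517 in parental cells and 405 in line 1, and per CpG read of the library this was a ratio to parental of 0.353 in line 2 and 0.846 in line 1. Over the whole locus these ratios were 0.915 and 0.959. The part of read depth in the levels was not tested.

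By the 2-sided Fisher exact test of reads, adjusted over all 2238764 CpGs with 10 or more reads in every library and called at an adjusted p under 0.05 with a difference of at least 25 points, 15 of the 182 CpGs of the locus were higher in line 1 than in parental cells. The background of such calls was 0.599%. In line 2, 6 of 182 were higher, against a background of 0.0831%. The same 6 CpGs made up all calls shared by both lines, against 0.0581%. All 6 lay in the block, and 14 of the 15 calls of line 1 did. Since the block was picked for this rise, nothing is read from these shares. Lower calls numbered 1 in line 1 (background 4.46%), 0 in line 2 (0.713%) and 0 in both lines (0.6%). Between the knockout lines 0 of 182 were called higher in line 1 (0.184%) or lower (1.07%) by the Fisher test, though 7 of the 14 block CpGs had an unadjusted p under 0.05. Neighbouring CpGs of the block are covered by the same DNA fragments of 150 to 200 bp, so their calls are not independent. Without line 2 the shared calls become those of line 1, with 15 higher and 1 lower.

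Toward the gene body, the 4 CpGs directly beside the block, from 57504151 to 57504209, were higher in both lines. Their mean level was 18.6% in parental cells, 91.0% in line 1 and 88.0% in line 2, on 36, 27 and 35 reads. Line 1 lay 72.3 points and line 2 69.3 points above parental, and the lines were 2.99 points apart. At 57504187, the last CpG of the rise on this side, 3 of 9 parental reads were methylated, whereas line 1 had 6 of 6 and line 2 had 8 of 8. Each of these CpGs had under 10 reads in at least 1 library, so none was tested.

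Farther into the gene the next CpG read was 57502183, 3013 bp inside the given start and 1968 bp from the nearest CpG described so far. The knockout lines stood apart there by 49.0 points. In parental cells 0 of 17 reads were methylated (0%, 0% to 19.5%), whereas line 1 had 8 of 13 (61.5%, 31.6% to 86.1%) and line 2 had 2 of 16 (12.5%, 1.55% to 38.3%). Line 1 was called against parental with a Fisher adjusted p of 0.00610, whereas line 2 was not called, with an adjusted p of 1. The test of line 1 against line 2 gave an adjusted p of 0.326 and an unadjusted p of 0.0161. Among the 14 CpGs tested in the gene body below the block, 57502183 was the only one called in any pair. Over all tested CpGs, 0.599% were called higher in line 1 than in parental cells. On the far side of 57502183 the nearest read CpG was 2851 bp away.

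The rest of the gene body was methylated in all libraries. Over the 24 CpGs from the given end to 2 kb below the block, 57502183 included, the mean level was 86.8% in parental cells, 88.3% in line 1 and 87.2% in line 2. The stretch nearest to the block, 7 CpGs from 57499210 to 57499332, was at 100% in parental cells, 85.7% in line 1 and 92.4% in line 2, on 3 to 10 reads per CpG. The stretches at 57492996 to 57493170 and 57493562 to 57493693, with 8 and 7 CpGs, had levels from 79.6% to 96.4%. Among the tested CpGs of these stretches, the largest rise by the smaller of the line differences was at 57493629, where 8 of 11 parental reads were methylated, 11 of 12 in line 1 and 26 of 26 in line 2, with Fisher adjusted p of 1 and 0.433. With fewer parental reads, 57493170 had 4 of 5, 10 of 10 and 8 of 8. One CpG stood apart: 57492996 had 0 of 28, 0 of 24 and 0 of 22 methylated reads in parental, line 1 and line 2, while 57492998, its neighbour, had 21 of 28, 23 of 25 and 20 of 22. It is also the tested CpG nearest to the given 3-prime end, 3809 bp away. The body was thus seen only in parts.

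Between the block and the given start, 6 CpGs were read, none of which reached 10 in each library. They averaged 34.1% in parental cells, 72.2% in line 1 and 79.9% in line 2, with a knockout mean of 76.1% ± 5.43 (SD, n = 2). Both lines were higher than parental at 5 of 6. The order of the lines was not stable here: line 1 minus line 2 was -7.68 points with any read, 17.2 points with a minimum of 5 reads and 15.6 points when CpGs were weighted by reads. Directly above the block, 57504456 had 8 of 20 parental reads methylated, 19 of 19 in line 1 and 5 of 6 in line 2, and 57504496 had 6 of 11, 15 of 15 and 3 of 3. After 400 bp without a read CpG, 57504949 had 1 of 9 parental reads methylated, 4 of 6 in line 1 and 11 of 18 in line 2. At 57504989, the last CpG of the rise, the counts were 1 of 8, 6 of 6 and 12 of 17. The exception was 57504896, with 2 of 3 parental reads, 0 of 2 in line 1 and 8 of 11 in line 2, where 95% intervals span from 9.43% to 99.2% in parental cells and from 0% to 84.2% in line 1. With a minimum of 5 reads, which leaves this CpG out, the knockout mean lay 59.1 points above parental in this zone, against 41.9 points with any read.

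Upstream of the given start the rise was gone. The 4 CpGs from 57505780 to 57505962 had a mean level of 8.25% in parental cells, 0% in line 1 and 7.34% in line 2. Summed over these CpGs, line 1 had 0 methylated of 72 reads, against 8 of 89 in parental cells and 9 of 129 in line 2. The 4 CpGs lie within 183 bp and fragments were 150 to 200 bp long. The sums can thus count a fragment more than once, and no upper limit is taken from them. At 57505822, the CpG of these with the most line 1 reads, 0 of 22 were methylated in line 1 (0%, 0% to 15.4%). The nearest of the 4 CpGs to the given start, 57505780, lies 584 bp upstream. It had 6 of 23 methylated reads in parental cells, 0 of 17 in line 1 and 4 of 24 in line 2, and was not called in either line (Fisher adjusted p 0.272 and 1). At the closest CpGs on either side of the start, 57504989 and 57505780, the order of the libraries was different: parental was the lowest inside the gene and the highest upstream. Among the 4 CpGs upstream, however, both lines lay below parental at 2 only.

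**Figure D2:**
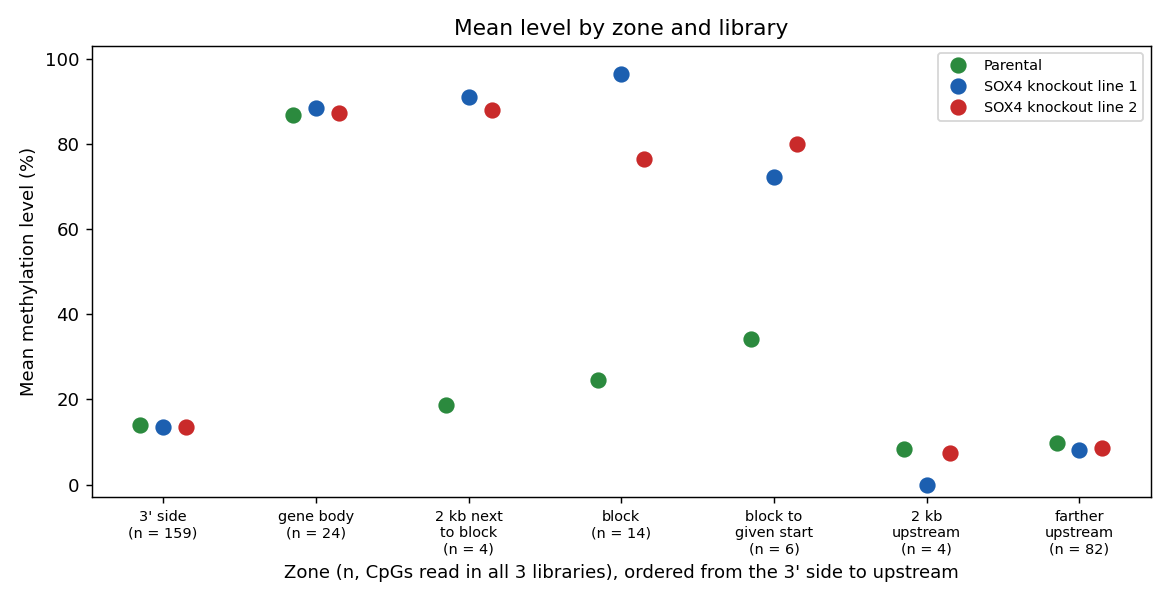
Mean methylation level (%) over the CpGs read in all 3 libraries, for 7 zones of the locus ordered from the 3-prime side of STAT6 to upstream, with 1 point per library and no error bars since each group point is 1 library. Parental lies below both knockout lines in the 3 zones from 2 kb beside the block to the given start, and all libraries are within 10 points of each other in the other 4 zones. In the zone of 2 kb beside the block, the only read CpGs are the 4 from 57504151 to 57504209.

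The mean levels on the side of the neighbours lay close together. On the 3-prime side of STAT6, toward NAB2 and NEMP1, 159 CpGs read in all libraries averaged 13.97% in parental cells, 13.4% in line 1 and 13.6% in line 2. At the NEMP1 start, where the placed window lies within a stretch of 47 CpGs from 57472211 to 57473024, levels were 0.535% in parental cells, 0.110% in line 1 and 0.347% in line 2. The largest unmethylated stretch, 77 CpGs from 57481273 to 57482620, had levels of 0.272%, 0.0633% and 0.263% in the same order. RefSeq order puts NAB2 between NEMP1 and STAT6, but whether this stretch is its start was not determined here. Between it and STAT6, 9 CpGs from 57485026 to 57485234 and 8 from 57485735 to 57485863 were methylated, at 93.3% to 100% per stretch in the 3 libraries. Among the CpGs tested here, the largest rise by the smaller of the line differences was 8.33 points, at 57485049, with 11 of 12 parental reads methylated, 13 of 13 in line 1 and 12 of 12 in line 2. In the same stretch 57485029, not tested for its 8 parental reads, had 5 of 8 methylated in parental cells and 10 of 10 in each knockout line, a difference of 37.5 points in both.

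The only other called CpG of the locus was a fall, between NEMP1 and the large unmethylated stretch. At 57478108, 27 of 28 parental reads were methylated (96.4%, 81.7% to 99.9%), whereas line 1 had 18 of 37 (48.6%, 31.9% to 65.6%) and line 2 had 35 of 43 (81.4%, 66.6% to 91.6%). The Fisher adjusted p was 0.000987 for line 1 and 0.803 for line 2 against parental, and 0.139 between the lines. Its neighbour 57478041, with 5 parental reads, showed the same order: 5 of 5 in parental cells, 6 of 16 in line 1 and 24 of 26 in line 2. At the third CpG of this stretch, 57478251, the counts were 8 of 14, 8 of 17 and 10 of 20.

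Farther upstream of STAT6, toward LRP1, 82 CpGs read in all libraries had a mean level of 9.74% in parental cells, 8.15% in line 1 and 8.47% in line 2. Low levels in every library were seen at 7 CpGs from 57518120 to 57518321 at 1.93% to 5.66%, 53 CpGs from 57520916 to 57521959 at 0.524% to 1.69%, and 15 CpGs from 57522291 to 57522598 at 0% to 2.00%. Beyond them, the 6 CpGs from 57525826 to 57526433 were at 91.2% in parental cells, 87.9% in line 1 and 80.01% in line 2. Among the tested CpGs, the largest rise and the largest fall here, by the smaller of the line differences, were 5.56 points at 57521027 (0 of 23, 1 of 18 and 2 of 32 methylated reads in parental, line 1 and line 2) and 8.33 points at 57521075 (2 of 24, 0 of 17 and 0 of 49). Larger falls were seen at CpGs with fewer reads: 57522550 had 3 of 10 in parental cells, 0 of 5 in line 1 and 0 of 8 in line 2, 57520968 had 2 of 7, 0 of 13 and 0 of 14, and 57525826 had 4 of 4, 8 of 10 and 4 of 10. None of the 33 CpGs tested in this zone was called in any pair by the Fisher test. Over all tested CpGs the shares called higher and lower were 0.599% and 4.46% in line 1, and 0.0831% and 0.713% in line 2. Between the lines they were 0.184% and 1.07%. At such shares, the lack of calls among 33 CpGs says little.

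**Figure D3:**
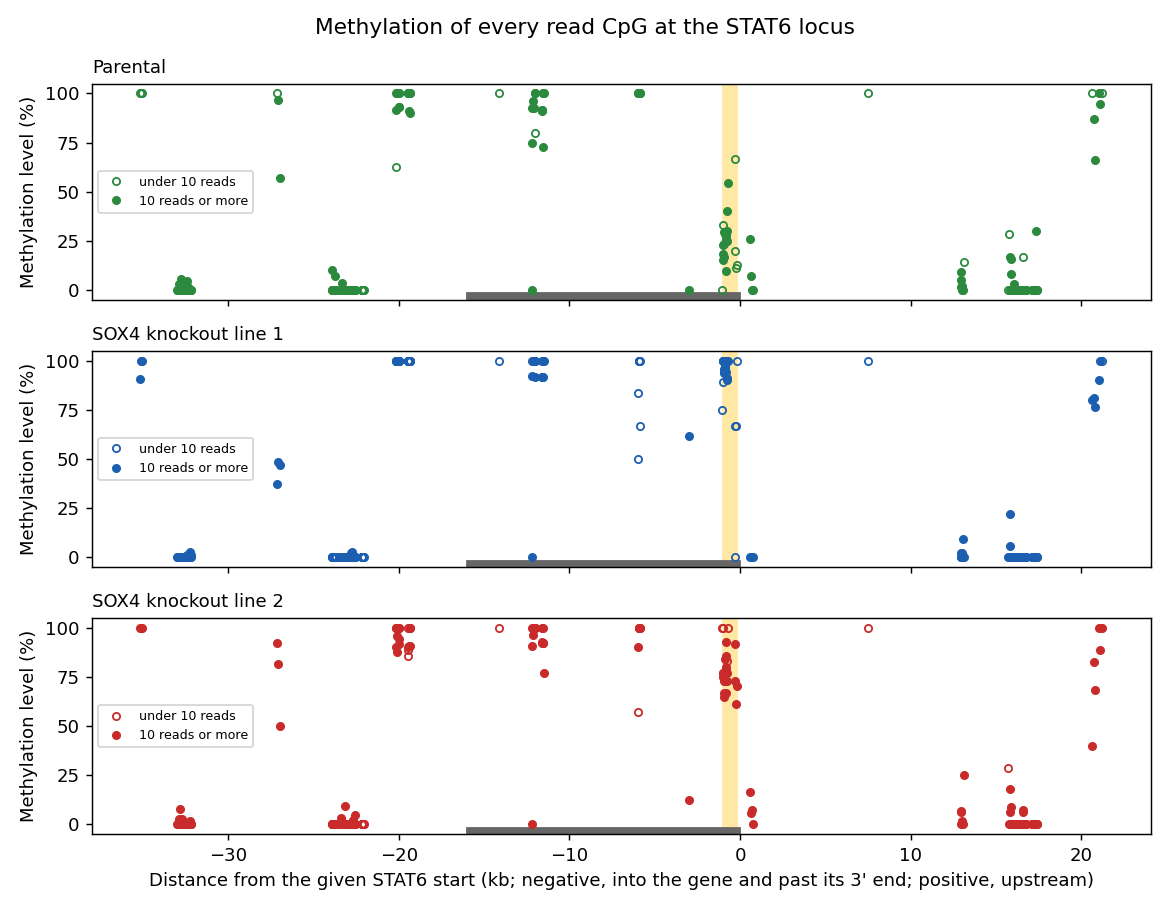
Methylation level (%) of every read CpG by distance in kb from the given STAT6 start, 1 panel per library, with filled points for CpGs of 10 reads or more and open points for fewer. The grey bar is STAT6 as given and the yellow band the 803 bp of the rise. CpGs in the band are mostly under 50% in the parental library and mostly over 60% in both knockout lines, while low and high stretches outside it keep their places.

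Outside the 803 bp, 168 CpGs of the locus were tested. Of these, 158 lay within 10 points of parental in both lines, 140 were at or under 10% in all 3 libraries and 19 at or over 80%. The Fisher test called 1 higher in line 1 (0.595%, against 0.599% of all tested CpGs) and 1 lower (0.595%, against 4.46%). Calls were 0 in line 2 (0.0831% higher and 0.713% lower over all tested CpGs) and 0 between the lines (0.184% and 1.07%). At an unadjusted p under 0.05 there were 3, 1 and 2, or 1.79%, 0.595% and 1.19%, against 12.8%, 7.60% and 8.27% of all CpGs tested in the same 3 pairs. Most of the 168 CpGs thus lay near an end of the scale, where a difference has room in 1 direction only. Over the 270 CpGs outside the 803 bp with any read in all libraries, the mean difference from parental was -0.515 points in line 1 and -0.199 in line 2. These 270 include 57504151, beside the block, which was higher in both lines on 2 to 4 reads per library. Over all 3130183 CpGs of the series with any read in all libraries, the mean difference was -4.03 and -2.12 points.

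**Figure D4:**
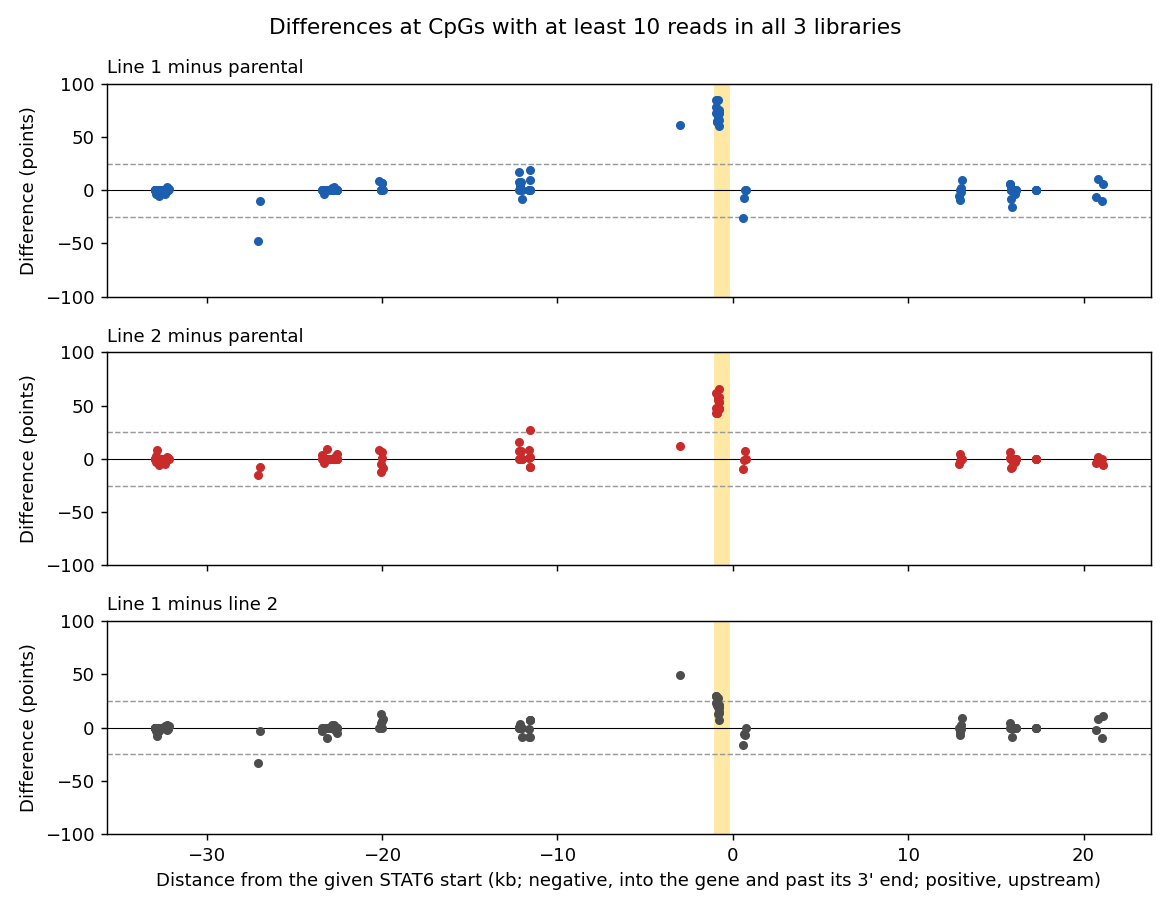
Difference in methylation (percentage points) at the 182 CpGs that had 10 or more reads in each library, by distance in kb from the given STAT6 start, for line 1 minus parental, line 2 minus parental and line 1 minus line 2. Dashed lines mark 25 points and the yellow band the 803 bp of the rise. The block stands above 25 points in both lines, 57502183 does so in line 1 alone and 57493629 in line 2 alone. Falls of more than 25 points from parental are at 57478108, the lowest point, and 57505780, both in line 1.

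Among the 8 windows of 1 kb in the locus with at least 5 CpGs of 10 reads, only the window from 57504001 to 57505000 was higher in both lines by 25 points, and 0 were lower. Of all 113184 windows, 0.068% were higher and 0.551% lower by that rule. The window holds the block, so this is a description. The other 7 differed from parental by -0.728 to 3.43 points in the knockout mean, and 56.9% to 92.6% of all windows had a lower difference. The window with the largest of these differences lies in the gene body, from 57493001 to 57494000, with levels of 93.5% in parental cells, 97.0% in line 1 and 96.9% in line 2.

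Elsewhere, CpGs that start at a level like that of the block had a lower mean in both knockout lines, as did all tested CpGs. In the series, 181929 CpGs with 10 or more reads in every library had a parental level between 9.52% and 30%, the range of the block. Their mean level was 18.7% in parental cells, 13.7% in line 1 and 16.5% in line 2. By at least 25 points, 1.65% of them were higher in both lines and 0.486% lower. Their mean difference from parental was -5.03 points in line 1 and -2.20 in line 2. Over all 2238764 tested CpGs it was -4.07 and -2.13 points, with 0.469% higher and 2.74% lower in both lines. The 181929 CpGs were chosen by the parental level that is also subtracted, so nothing is read from their difference or from their shares higher and lower. From a parental level under 25% no fall of 25 points is possible, whereas all of them could rise that far. All 14 CpGs of the block were higher in both lines by at least 25 points, by the way it was picked.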

How the data were processed

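The authors deposited, for each cytosine of a CpG and each strand, whole-number read counts (total, context and methylated coverage) and the methylation level as a fraction, methylated divided by context coverage. Per the labels, 500 ng of DNA was sheared to 150 to 200 bp, captured with the TruSeq Methyl Capture EPIC kit, bisulfite-treated and sequenced on a NovaSeq instrument. The submitters' processing notes name GRCh37 (hg19); the aligner, the methylation caller and duplicate removal are not given in the sources used here.

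Strands were summed, and a CpG is named by where its G falls on the forward strand. Levels and differences of zones are means over CpGs with at least 1 read in all 3 libraries. Fisher exact tests ran genome-wide on CpGs with at least 10 reads in all 3, with Benjamini-Hochberg adjustment, and were tested on simulated data. Intervals are Clopper-Pearson at 95% and cover counting error only. RefSeq start windows (GRCh38.p14) were placed by the spacing of their CpGs: every CpG read in the window had to be a CpG of the sequence, with at least 8 matches and at most 5 at the next best place. No coordinates were converted. CpGs were named by rule: those called in any pair, the largest rise and fall per zone among those tested, the ends of the rise and the CpGs nearest to the gene's ends. The locus, zones and named CpGs were chosen with earlier results of these data known, and the stretches, the start windows, the motifs, the read shares and a few further CpGs (57504151, 57504456, 57504496, 57504896, 57504949, 57478041, 57478251, 57485029, 57492998, 57493170, 57520968, 57522550, 57525826) after the values were seen. Tests used scipy 1.17.1 and numba 0.67.0, tables pandas 2.3.3 and numpy 2.4.6, and figures matplotlib 3.10.9, under Python 3.11.15.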

Additional observations from a re-analysis of the deposited data

How the results depend on the processing

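Of 124 alternative values for 18 results, 96 stayed within 1.5 times the count or within the SD of the knockout lines, 28 moved further, and no zone with a difference over 25 points changed direction. With 2 lines, leaving 1 out shifts a zone mean by less than their SD whatever the values. Zone values with a line left out were therefore bound to be counted among the 96 and say nothing of stability. Zone values from the complementary strand alone rest on nearly the same reads, since it gave 99.2% to 99.4% of those of the locus. Counts of 0 that stayed at 0 are also among the 96, so that total is no measure of stability. No paired analysis was possible because a single library stands for parental cells. Calls in the locus follow the read minimum. At 20 reads, 4 CpGs were higher in line 1 and 1 in line 2 and in both lines, since few block CpGs have that depth in line 2. At minimums of 1 and 5 reads, 1 CpG was lower in line 1 than in line 2. An adjusted p under 0.01 left 2 higher CpGs in line 2 and in both lines, and a difference of 50 points left 0 lower in line 1. Leaving out a knockout line gave 6 to 15 higher and 0 to 1 lower calls. The span of the rise was 346 bp with 1 read, 212 bp with 10 reads, 2807 bp at 10 points, 205 bp at 50 points, and 803 to 2807 bp with a line left out. In the 2 kb beside the block, CpGs were read only from 57504151 to 57504209, all upstream of the listed start. The knockout mean minus parental over them was 65.3 points at 5 reads and 65.5 points read-weighted. Between the block and the given start it was 59.1 and 48.5 points. In the gene body it was 2.71, 6.51 and 6.61 points at minimums of 5, 10 and 20 reads and 6.04 points read-weighted. Farther upstream it was -1.77, -0.651 and -0.744 points at these minimums and 0.470 points read-weighted, and on the 3-prime side 0.280 points read-weighted, both small differences whose sign is not stable. Leaving out a line moved the difference of the block between 51.8 and 71.8 points. The cause of these moves was not tested, other than the smaller number of CpGs at higher minimums. Between the block and the given start the order of the knockout lines changed, with line 1 minus line 2 at -7.68 points with any read, 17.2 at 5 reads and 15.6 read-weighted. Depth limits the account beside the block, where CpGs had as few as 2 reads, and in several other stretches, down to 1 read, and reads of a single strand gave every value of the rise.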

Other observations

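The windows of chromosome 12 whose 3 library levels were closest to those of the STAT6 window are given by position only. The closest, from 47225001 to 47226000, had 22 CpGs with levels of 51.0%, 94.3% and 75.0% in parental cells, line 1 and line 2, and the window beside it, from 47224001 to 47225000, was at 55.4%, 95.3% and 67.7%. The others were 117483001 to 117484000 (15.4%, 79.0% and 52.6%), 122462001 to 122463000 (47.5%, 76.7% and 63.0%) and 65219001 to 65220000 (33.0%, 66.8% and 63.7%). The windows were chosen for these levels, so the order of the libraries in them is set by the choice. Their distances from the STAT6 window over the 3 levels ran from 26.6 to 33.2 points.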
